A study of Mus musculus with 21 samples.

Results

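Messenger RNA of 10 genes that govern entry into the cell cycle was compared between oncogene-transformed and control B cell precursors. The genes were taken by symbol, for their roles: the D cyclins Ccnd1, Ccnd2 and Ccnd3, their kinases Cdk4 and Cdk6, the E cyclins Ccne1 and Ccne2, and the CDK inhibitors Cdkn1b (p27), Cdkn2c (p18) and Cdkn2d (p19 of the INK4 family). All 10 were found among the 24421 gene symbols of the deposited tables, and all 10 were among the 12786 genes that passed the filter on low counts. Primary B cell precursors came from bone marrow of C57BL/6 mice with the genotype 53BP1-/- and were grown with interleukin-7 (IL-7). They received a MIGR1 retrovirus that was empty (EV), that encoded the human fusion kinase BCR-ABL1 in its p210 form, or that encoded mouse C-MYC, and were harvested on days 7 to 9 after transduction. The deletion of 53BP1, a DNA repair factor, was shared by all conditions, controls included, and the cells were bulk cultures depleted of dead cells. Each of the 3 conditions had 2 poly(A) RNA-seq libraries, described as duplicate experiments, so p-values measure the spread between these libraries.

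D-type cyclins bind and activate CDK4 and CDK6, which phosphorylate the retinoblastoma protein RB and so release E2F transcription factors. E2F raises transcription of the E cyclins, which activate CDK2 and carry cells into S phase. INK4 proteins such as p18 and p19 bind CDK4 and CDK6 alone, whereas p27 of the CIP/KIP family binds cyclin-CDK complexes, in particular those of CDK2. In B cell precursors, cyclin D3 is known to be required for the expansion that follows signals of the pre-B cell receptor and of IL-7, and p27 is a known target of FOXO factors.

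The libraries held 20687092 to 24095955 counts. Myc, whose coding sequence was on the C-MYC vector, had 181 and 137 CPM (counts scaled to a common library size by TMM) in EV, 343 and 348 CPM in BCR-ABL1, and 1743 and 1233 CPM in C-MYC. The libraries labelled C-MYC thus held the most Myc RNA, whereas the human BCR-ABL1 sequence could not be checked with mouse gene symbols. Markers of B cell precursors summed to 5878 to 6720 CPM in EV, 6039 to 6752 CPM in BCR-ABL1 and 3343 to 4058 CPM in C-MYC. In any library 0 of 10 were at 0 counts. By edgeR, 9 of 10 were lower in C-MYC than in EV, beside 24.5% of all genes tested. Against BCR-ABL1, 7 of 10 were lower in C-MYC, beside 11.9%. In BCR-ABL1, 2 of 10 were lower than in EV, beside 12.0%, and in each comparison 0 were higher. Il7r had 183.9 and 130.7 CPM in EV, 46.6 and 42.8 CPM in BCR-ABL1, and 50.8 and 52.4 CPM in C-MYC. Markers of other cells were highest in EV. Myeloid markers summed to 927 to 1166 CPM in EV, 125 to 140.1 CPM in BCR-ABL1 and 149.5 to 252 CPM in C-MYC. Macrophage markers summed to 359.5 to 602 CPM in EV, 46.9 to 60.5 CPM in BCR-ABL1 and 132 to 234 CPM in C-MYC. Markers of T and NK cells (98.2 to 134 CPM), mast cells and basophils (85.1 to 87.2 CPM), stroma (111 to 175 CPM) and erythroid cells and megakaryocytes (37.2 to 47.2 CPM) were low in EV and summed to at most 13.3 CPM in the other conditions, and the listed globin genes were at 0 in all libraries. In bulk RNA, fewer cells of a type and less RNA per cell cannot be told apart. These sums differ between the conditions in all comparisons below, and their part in the results was not tested.

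Between C-MYC and EV, 9 of the 10 genes passed the test. Cdk4, Cdk6, Ccne1 and Ccne2 were higher, and Ccnd2, Ccnd3, Cdkn1b, Cdkn2c and Cdkn2d were lower. Among all genes tested, 18.6% were called higher and 24.5% lower in this comparison. Between BCR-ABL1 and EV, 1 of the 10 was higher, Cdk4, beside 5.08% of all genes, and 0 were lower, beside 12.0% of all genes, by the quasi-likelihood test of edgeR with p-values adjusted after Benjamini and Hochberg. At an unadjusted p under 0.05, 1 gene was lower, Cdkn2d, which DESeq2 also called. Between C-MYC and BCR-ABL1, 1 of the 10 was higher, Cdk6, beside 11.5% of all genes, and 4 were lower, Ccnd3, Cdkn1b, Cdkn2c and Cdkn2d, beside 11.9% of all genes. The median log2 fold change of the 10 genes was 0.02 for BCR-ABL1 against EV, -0.42 for C-MYC against EV and -0.12 for C-MYC against BCR-ABL1, where the medians of all genes tested were 0.00, -0.08 and -0.00. At an unadjusted p under 0.05, in either direction, stood 3990 of the 12786 genes tested for BCR-ABL1 against EV. The same count was 6648 for C-MYC against EV and 4780 for C-MYC against BCR-ABL1. The comparisons share libraries and are given side by side.

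**Figure D1:**
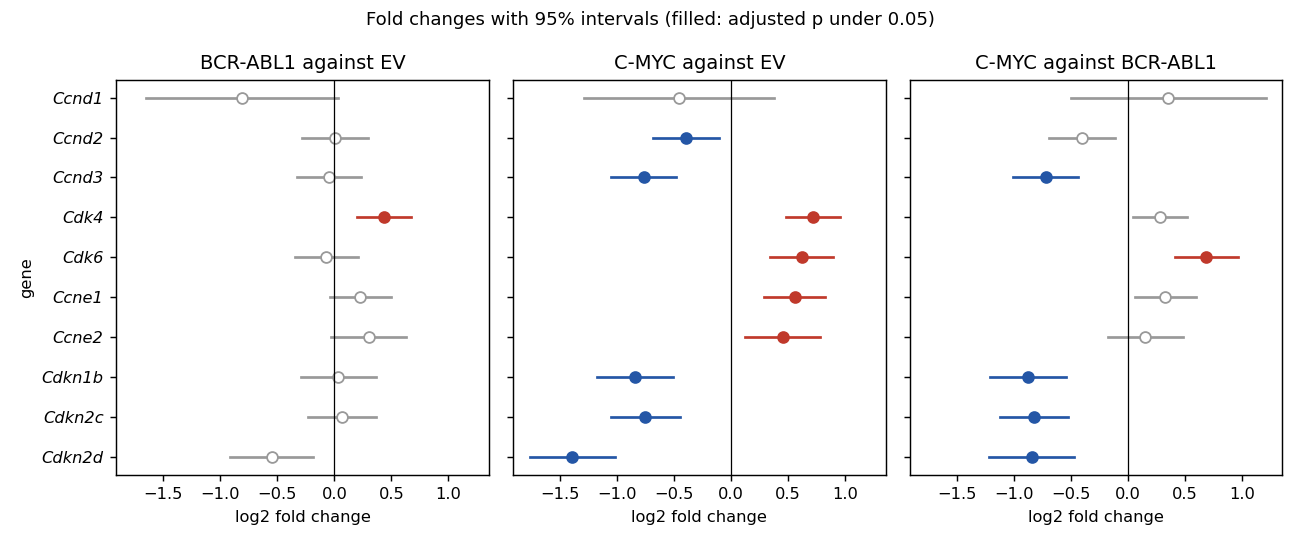
Log2 fold changes of the 10 genes (horizontal axis) with 95% intervals from edgeR, in 1 panel for each comparison. Filled points passed at an adjusted p under 0.05 (red, higher; blue, lower) and open points did not; C-MYC against EV holds 4 red and 5 blue points, BCR-ABL1 against EV 1 red and 0 blue.

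With the replicate number as a block in the model, more of the 10 genes passed. Cdkn2d was then lower in BCR-ABL1 than in EV, with a log2 fold change of -0.55 and an edgeR adjusted p of 0.00965. Ccnd2 (-0.41, adjusted p = 0.0134) was then lower, and Cdk4 (0.28, adjusted p = 0.0471) and Ccne1 (0.33, adjusted p = 0.0397) were higher, in C-MYC than in BCR-ABL1. The block also added calls over all genes: those higher in BCR-ABL1 than in EV went from 650 to 1221. That count is not in the direction of Cdkn2d, and Ccnd2, Cdk4 and Ccne1 passed in another comparison. For the gained calls, no share of all genes with the block is given here. Below, the count of all genes called with the block is given only for those higher in BCR-ABL1 than in EV.

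**Figure D2:**
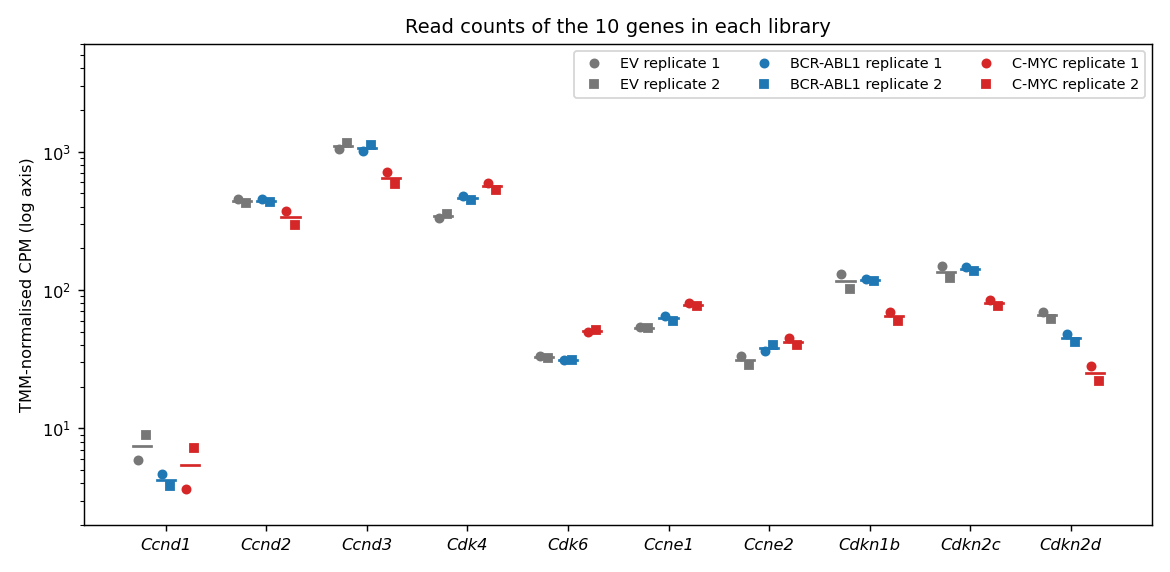
TMM-scaled CPM of each of the 10 genes (vertical axis, logarithmic) in the 6 libraries; circles are replicate 1, squares replicate 2 and short lines the mean of 2 libraries. Cdk4 rises and Cdkn2d falls from EV over BCR-ABL1 to C-MYC with no overlap of conditions, while Ccnd1 lies below 10 CPM in every library.

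Ccnd3, at chromosome 17, 47505051-47599691 (GRCm38, plus strand), was the D cyclin with the highest level per length. It had 531 and 591 FPKM (fragments per kilobase of transcript, scaled to the library size) in EV, 489 and 549 FPKM in BCR-ABL1, and 341 and 297 FPKM in C-MYC. In counts scaled to the library, it had 1051 and 1148 CPM in EV, 1005 and 1126 CPM in BCR-ABL1, and 708 and 586 CPM in C-MYC. The C-MYC libraries were the lowest on either scale, and EV and BCR-ABL1 overlapped. C-MYC was lower than EV by a log2 fold change of -0.77 (SE 0.122, n = 2 libraries each; edgeR adjusted p = 0.00219), a fold of 0.588, and lower than BCR-ABL1 by -0.72 (SE 0.122; adjusted p = 0.00647). Between BCR-ABL1 and EV the difference was -0.05, with a 95% interval from -0.33 to 0.23. The call against EV held under all 15 alternatives, whereas that against BCR-ABL1 was lost without BCR-ABL1 replicate 2 (-0.63, adjusted p = 0.0521). Its exons overlap those of Bysl on the opposite strand (61.8 CPM on average), and Ccnd3-ps is an annotated processed pseudogene. The sources used here do not state how such reads were counted.

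Ccnd2, which encodes cyclin D2, another D cyclin of lymphoid cells, lies at chromosome 6, 127125162-127152193 (minus strand). It had 456 and 425 CPM in EV, 451 and 435 CPM in BCR-ABL1, and 374 and 296 CPM in C-MYC, and again only C-MYC stood apart. The log2 fold change of C-MYC against EV was -0.39 (SE 0.126; edgeR adjusted p = 0.0366), and against BCR-ABL1 it was -0.40 (SE 0.126; adjusted p = 0.0547), which did not pass, though it passed without either EV library (-0.40 in each, adjusted p = 0.0329 and 0.0323) or C-MYC replicate 1 (-0.58, adjusted p = 0.0343). The call against EV was lost without EV replicate 1 (-0.34, adjusted p = 0.093), without BCR-ABL1 replicate 1 or 2 (-0.39 in each, adjusted p = 0.0748 and 0.077) and without C-MYC replicate 2 (-0.23, adjusted p = 0.18). It was also lost with DESeq2 (-0.34, adjusted p = 0.0656). BCR-ABL1 and EV differed by 0.01, with a 95% interval from -0.28 to 0.30.

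Ccnd1, at chromosome 7, 144929931-144939925 (minus strand), encodes cyclin D1, known mainly from cells outside the B lineage. The EV libraries held 127 and 212 counts of it, those of BCR-ABL1 98 and 92 counts, and those of C-MYC 79 and 160 counts, which is 3.63 to 8.86 CPM over all 6 libraries. Both BCR-ABL1 libraries lay below both of EV (log2 fold change -0.81, 95% interval from -1.65 to 0.036), and C-MYC overlapped with either. None of its comparisons passed, with adjusted p between 0.177 and 0.524. In EV and C-MYC, the library with more Ccnd1 was also the one with the larger sum of macrophage markers: replicate 2 with 602 against 359.5 CPM in EV, and replicate 2 with 234 against 132 CPM in C-MYC. In BCR-ABL1 it was the other way, since replicate 2 had the larger sum (60.5 against 46.9 CPM) and less Ccnd1 (3.82 against 4.65 CPM). The part of these markers in the Ccnd1 level was not tested.

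Per length, Ccnd3 made up 87.3% and 88.7% of the FPKM of the D cyclins in the EV libraries, 87.04% and 88.5% in those of BCR-ABL1, and 85.5% and 85.9% in those of C-MYC. Ccnd1 made up 0.140% to 0.494% in the 6 libraries. When TMM CPM was divided by the annotated exon length in kilobases instead, the share of Ccnd3 was 70.67% and 73.5% in the EV libraries, 70.1% and 73.2% in those of BCR-ABL1, and 66.6% and 66.9% in those of C-MYC. The order of the D cyclins was the same on both scales, but the size of the shares depended on the length used. C-MYC had the lowest shares of Ccnd3 on both scales.

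Cdk4, which held most of the RNA per length of the D cyclin kinases here, lies at chromosome 10, 127063534-127067920 (plus strand). It had 331 and 355 CPM in EV, 476 and 450 CPM in BCR-ABL1, and 595 and 532 CPM in C-MYC, so the 3 conditions did not overlap. C-MYC was higher than EV by a log2 fold change of 0.72 (SE 0.102; edgeR adjusted p = 0.00147), a fold of 1.64, in all 15 alternatives. BCR-ABL1 was higher than EV by 0.43 (SE 0.102; adjusted p = 0.0254), a fold of 1.35. That call was lost without EV replicate 1 (0.39, adjusted p = 0.055), without BCR-ABL1 replicate 1 (0.40, adjusted p = 0.187) and without BCR-ABL1 replicate 2 (0.47, adjusted p = 0.132), and with limma on FPKM at a pseudocount of 1 (0.36, adjusted p = 0.0578). The step from BCR-ABL1 to C-MYC was 0.28 (SE 0.102; adjusted p = 0.0824). Exons of Tspan31 (44.7 CPM on average) overlap those of Cdk4 on the opposite strand.

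The 250 bases before the annotated start of Cdk4 are shown because they hold CACGTG, the canonical E-box to which MYC with its partner MAX is known to bind, in more copies than the windows found for 6 others of these genes. They lie at chr10:127063285-127063534 on the plus strand of GRCm38.p6 (RefSeq), and capitals mark each CACGTG. The last of these bases is also the first base of the gene in GENCODE.

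Cdk4: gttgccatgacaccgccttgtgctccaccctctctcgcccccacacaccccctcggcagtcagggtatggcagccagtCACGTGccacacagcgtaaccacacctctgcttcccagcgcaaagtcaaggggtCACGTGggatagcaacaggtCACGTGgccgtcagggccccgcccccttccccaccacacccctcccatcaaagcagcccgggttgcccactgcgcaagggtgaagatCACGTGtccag

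The 4 copies began at positions -172, -118, -98 and -11 from the start site. Of 32851 RefSeq promoter windows, each with 250 bases before and 50 after a start, 7.15% held at least 1 CACGTG on either strand (the motif reads the same on both) and 0.0244%, or 8 windows, held at least 4. The cut-off of 4 was taken from the Cdk4 window itself, so this share is a description and not a test. Windows were found for 7 of the 10 genes: Cdk4, Cdk6, Ccne1, Cdkn1b and Cdkn2d with 1 each, and Ccnd3 and Cdkn2c with 2 each. Cdk6 held 1 copy at -220, and the 30 bases around it, at chr5:3343661-3343690 on the plus strand, are given for comparison. Unlike the Cdk4 stretch, these bases lie inside the GENCODE span of their gene, which starts at 3341485, and outside its annotated exons.

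Cdk6: gttctgcggcccCACGTGggtgaacccccg

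A window of Cdkn2c, at chr4:109665323-109665622 and also inside the GENCODE span of its gene, held 1 copy at position 35 after its start. The windows of Ccnd3, Ccne1, Cdkn1b and Cdkn2d held 0. Thus genes with the motif were found among those higher and among those lower in C-MYC. TTCCCGCC, an E2F sequence, was in 0 of the 9 windows and in 2.19% of all windows, and TTCNNNGAA, a STAT5 sequence, was in 0 of the 9 and in 8.3% of all. GTAAACA, a FOXO sequence, was at -243 in a window of Ccnd3 and in 3.65% of all windows. Both strands were searched. The motifs were chosen after the expression values were seen, and a match or its absence is a description of these letters in these windows.

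Cdk6, at chromosome 5, 3341485-3531008 (plus strand), encodes the other kinase of the D cyclins. It had 33.1 and 32.4 CPM in EV, 31.4 and 31.04 CPM in BCR-ABL1, and 49.5 and 51.2 CPM in C-MYC. The C-MYC libraries were high, and those of BCR-ABL1 lay just below those of EV. The log2 fold change of C-MYC was 0.62 against EV (SE 0.12; edgeR adjusted p = 0.0049), held in all 15 alternatives, and 0.69 against BCR-ABL1 (SE 0.12; adjusted p = 0.00713). The latter call was lost without BCR-ABL1 replicate 1 (0.70, adjusted p = 0.0909), without BCR-ABL1 replicate 2 (0.69, adjusted p = 0.0682) and without C-MYC replicate 2 (0.66, adjusted p = 0.0571). Between BCR-ABL1 and EV the difference was -0.07, with a 95% interval from -0.35 to 0.21. Cdk4 made up 95.04% to 96.7% of the FPKM of the kinase pair in the 6 libraries, and 97.7% to 98.5% of their CPM per kilobase.

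Ccne1 and Ccne2 encode the E cyclins that activate CDK2. Ccne1, at chromosome 7, 38097984-38107534 (minus strand), had 53.5 and 52.9 CPM in EV, 64.9 and 59.6 CPM in BCR-ABL1, and 80.6 and 75.9 CPM in C-MYC, with no overlap of conditions. C-MYC was higher than EV by a log2 fold change of 0.56 (SE 0.116; edgeR adjusted p = 0.0067), a call lost without C-MYC replicate 1 (0.52, adjusted p = 0.0519). Its differences from BCR-ABL1 (0.33, adjusted p = 0.0756, which passed without EV replicate 1 or 2 at an adjusted p of 0.0374 and 0.0378) and of BCR-ABL1 from EV (0.23, adjusted p = 0.23) did not pass. Ccne2, at chromosome 4, 11191351-11204779 (plus strand), had 33.4 and 28.5 CPM in EV, 36.3 and 39.9 CPM in BCR-ABL1, and 44.6 and 40.1 CPM in C-MYC. All oncogene libraries lay above both EV libraries, and those of C-MYC lay just above those of BCR-ABL1 in CPM. On FPKM, C-MYC (19.2 and 22.3) and BCR-ABL1 (19.7 and 21.6) overlapped. The C-MYC difference from EV was 0.45 (SE 0.142; adjusted p = 0.0351) and was kept in 6 of 15 alternatives. It was lost without EV replicate 2 (0.34, adjusted p = 0.0794), BCR-ABL1 replicate 1 (0.46, adjusted p = 0.074), BCR-ABL1 replicate 2 (0.46, adjusted p = 0.0744), C-MYC replicate 1 (0.38, adjusted p = 0.174) or C-MYC replicate 2 (0.53, adjusted p = 0.0748). Exons of Ints8 (59.2 CPM on average) overlap those of Ccne2 on the opposite strand. Ccne1 made up 57.1% to 65.7% of the FPKM of the pair, with no order between conditions beyond the spread of the libraries.

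Cdkn2d showed the largest change of the 10 genes. It lies at chromosome 9, 21288410-21291407 (minus strand) and encodes an INK4 inhibitor of CDK4 and CDK6. It had 69.4 and 62.1 CPM in EV, 47.8 and 42.2 CPM in BCR-ABL1, and 28.2 and 22.0 CPM in C-MYC, falling in that order with no overlap. C-MYC was lower than EV by a log2 fold change of -1.39 (SE 0.161; edgeR adjusted p = 0.000653), a fold of 0.382, in all 15 alternatives. C-MYC was lower than BCR-ABL1 by -0.84 (SE 0.16; adjusted p = 0.00964), a call lost without BCR-ABL1 replicate 1 (-0.75, adjusted p = 0.0961) and without C-MYC replicate 2 (-0.68, adjusted p = 0.0755). BCR-ABL1 against EV stood at -0.55 (SE 0.157; adjusted p = 0.0508), just outside the threshold, and it passed without EV replicate 2 (-0.62, adjusted p = 0.0305).

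Cdkn2c, the INK4 inhibitor p18, lies at chromosome 4, 109660876-109667189 (minus strand). It had 149 and 121 CPM in EV, 145 and 138 CPM in BCR-ABL1, and 83.9 and 76.7 CPM in C-MYC. In contrast to Cdkn2d, its EV and BCR-ABL1 libraries overlapped in CPM, and they differed by 0.07 with a 95% interval from -0.23 to 0.37. On FPKM both BCR-ABL1 libraries (58.4 and 56.5) lay above both of EV (49.2 and 52.7). The C-MYC libraries were lower than EV by a log2 fold change of -0.75 (SE 0.129; edgeR adjusted p = 0.00303), in all 15 alternatives, and lower than BCR-ABL1 by -0.82 (SE 0.129; adjusted p = 0.00514). The latter call was lost without BCR-ABL1 replicate 1 (-0.78, adjusted p = 0.0567) and without C-MYC replicate 2 (-0.76, adjusted p = 0.0503). Accordingly Cdkn2c made up 47.8% and 51.7% of the FPKM of the INK4 pair in the EV libraries, 63.2% and 64.2% in those of BCR-ABL1 and 55.6% and 58.1% in those of C-MYC. On CPM per kilobase the EV libraries had shares of 55.7% and 53.4%, those of BCR-ABL1 64.1% and 65.7%, and those of C-MYC 63.6% and 67.1%, so only EV stood apart there.

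Cdkn1b, which encodes p27, lies at chromosome 6, 134920401-134925513 (plus strand). It had 129 and 102 CPM in EV, 119.8 and 117 CPM in BCR-ABL1, and 68.8 and 60.1 CPM in C-MYC. The pattern in CPM was that of Cdkn2c, with C-MYC apart and BCR-ABL1 within the spread of EV. The log2 fold change of C-MYC was -0.84 against EV (SE 0.144; edgeR adjusted p = 0.00294), in all 15 alternatives, and -0.88 against BCR-ABL1 (SE 0.144; adjusted p = 0.00593). Without BCR-ABL1 replicate 1 (-0.86) or C-MYC replicate 2 (-0.78) the latter had an adjusted p of 0.056 in either case. BCR-ABL1 and EV differed by 0.03, with a 95% interval from -0.30 to 0.36.

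Per length, the order of the 10 genes by mean FPKM in EV was Ccnd3 (561 ± 42.3, SD, n = 2), Cdk4 (252 ± 18.1), Ccnd2 (74.7 ± 2.23), Cdkn2d (51.5 ± 3.2), Cdkn2c (50.9 ± 2.5), Cdkn1b (46.9 ± 7.19), Ccne1 (26.4 ± 0.0624), Ccne2 (16.4 ± 2.01), Cdk6 (12.5 ± 0.0268) and Ccnd1 (1.73 ± 0.779). Of these neighbours, Cdkn2d and Cdkn2c, and Cdkn2c and Cdkn1b, overlapped between libraries. In C-MYC, Cdk4 (375 ± 22.2 FPKM) stood above Ccnd3 (319 ± 30.7 FPKM), and Cdkn2d (17.9 ± 2.96 FPKM) fell among Cdkn1b, Cdkn2c, Ccne2 and Cdk6, which lay between 17.5 and 24.01 FPKM. Ccnd3 was above 99.3% of the genes with FPKM above 0 in EV and above 98.4% in C-MYC. Levels on CPM per kilobase of annotated exon differed from FPKM by gene: relative to the median gene, FPKM was 2.92 times higher for Ccnd3, 3.38 times for Cdk6 and 1.51 times for Cdk4. On CPM per kilobase, Ccnd3 (119.8 and 130.8) was above Cdk4 (102.0 and 109.4) in the EV libraries as on FPKM. In the BCR-ABL1 libraries Cdk4 (146.5 and 138.7) was above Ccnd3 (114.5 and 128.3), the reverse of the order on FPKM.

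Ratios within a library do not depend on how libraries are scaled, and they are given as a description. An exact permutation test of 2 libraries against 2 cannot give a p below 0.333, so it cannot separate the conditions. The summed FPKM of the D cyclins was 2.42 and 2.41 times that of Cdk4 and Cdk6 in EV, 1.64 and 1.9 times in BCR-ABL1, and 0.977 and 0.918 times in C-MYC. The summed FPKM of the INK4 genes Cdkn2c and Cdkn2d was 0.409 and 0.368 times that of Cdk4 and Cdk6 in EV, 0.270 and 0.269 times in BCR-ABL1, and 0.111 and 0.1002 times in C-MYC. The FPKM of Cdkn1b was 1.18 and 1.01 times that of the E cyclins in EV, 0.913 and 0.902 times in BCR-ABL1, and 0.448 and 0.393 times in C-MYC. For these 3 ratios EV was highest and C-MYC lowest, with no overlap of libraries. A further ratio of FPKM, Ccnd3 to Ccnd2, overlapped between EV (6.956 and 8.074) and BCR-ABL1 (6.798 and 7.799). The mean INK4 ratio was 3.69-fold higher in EV than in C-MYC and 1.44-fold higher in EV than in BCR-ABL1. On CPM per kilobase, these folds were 3.31 and 1.52, and the order of the conditions was the same for all 3 ratios. These are ratios of RNA, not of protein, and the values of 1 gene cannot be converted to those of another without the length.

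**Figure D3:**
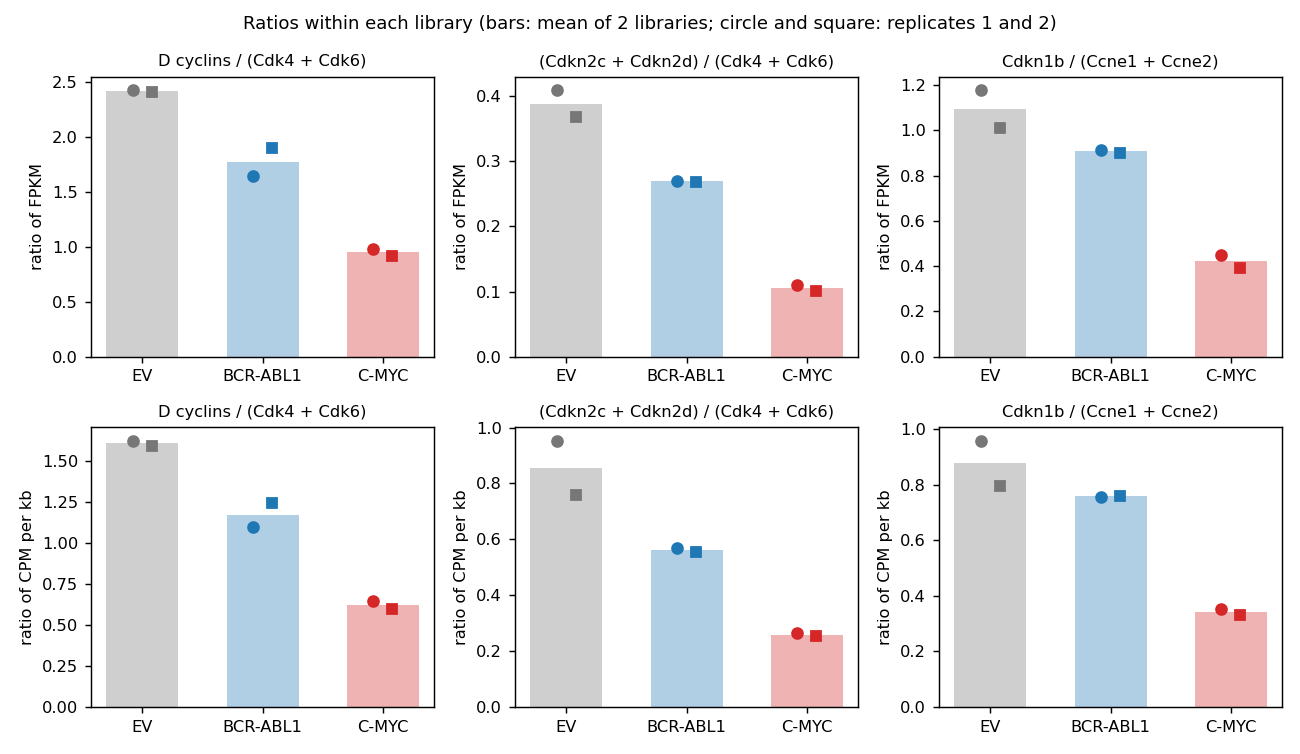
Ratios of summed levels within each library, from FPKM (upper row) and from TMM CPM per kilobase of annotated exon (lower row); bars are means of 2 libraries and points the libraries. In every panel the bars fall from EV over BCR-ABL1 to C-MYC, for the INK4 genes over Cdk4 and Cdk6 from 0.389 to 0.269 and 0.105 on FPKM.

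Of 4 other CDK inhibitors tested, 2 were lower in C-MYC than in EV, beside 24.5% of all genes, and 2 were lower than in BCR-ABL1, beside 11.9% of all genes: Cdkn2a, the locus of p16 and of p19ARF, whose transcripts these counts do not separate, and Cdkn2b (p15). Cdkn1a (p21) also passed with the replicate block, at -0.53 against EV (adjusted p = 0.0152) and -0.55 against BCR-ABL1 (adjusted p = 0.0202). DESeq2 called 3 lower against BCR-ABL1, and at an unadjusted p under 0.05 3 were lower in either comparison. Cdkn2a had 47.2 and 37.9 CPM in EV, 60.3 and 59.7 CPM in BCR-ABL1, and 22.7 and 23.2 CPM in C-MYC. The C-MYC libraries were the lowest and those of BCR-ABL1 the highest. The log2 fold change of C-MYC was -0.89 against EV (SE 0.144; edgeR adjusted p = 0.00237) and -1.39 against BCR-ABL1 (SE 0.145; adjusted p = 0.0013), in all 15 alternatives each. BCR-ABL1 was higher than EV by 0.50 (SE 0.141; adjusted p = 0.0493), a call kept in 5 of 15 alternatives and lost without either BCR-ABL1 replicate (0.50 in each, adjusted p = 0.236 and 0.257), without either C-MYC replicate (0.50 in each, adjusted p = 0.0878 and 0.0876) or without EV replicate 2 (0.35, adjusted p = 0.0848). Cdkn2b was near the floor, with 41 and 36 counts in the EV libraries, 54 and 48 counts in those of BCR-ABL1, and 11 and 15 counts in those of C-MYC. Its log2 fold change was -1.52 against EV (SE 0.382; adjusted p = 0.0146), a call lost without C-MYC replicate 1 (-1.33, adjusted p = 0.0949) or 2 (-1.74, adjusted p = 0.0512). Against BCR-ABL1 it was -1.94 (SE 0.376; adjusted p = 0.0103), lost without BCR-ABL1 replicate 1 (-1.75, adjusted p = 0.0998), C-MYC replicate 1 (-1.75, adjusted p = 0.076) or C-MYC replicate 2 (-2.16, adjusted p = 0.0564).

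Some genes for the substrates of the kinases and for the factors they release passed the test. Of the 3 RB family genes, 2 were lower in C-MYC than in EV, Rb1 and Rbl2, beside 24.5% of all genes. In any comparison 0 were higher, also at an unadjusted p under 0.05 and with DESeq2. Rb1 had 95.6 and 101 CPM in EV, 94.4 and 94.2 CPM in BCR-ABL1, and 60.8 and 59.5 CPM in C-MYC, a log2 fold change of -0.71 against EV (SE 0.106; edgeR adjusted p = 0.00176). It was also lower in C-MYC than in BCR-ABL1 (-0.65, adjusted p = 0.00589), a call lost without BCR-ABL1 replicate 1 (-0.65, adjusted p = 0.0725), BCR-ABL1 replicate 2 (-0.64, adjusted p = 0.0545) or C-MYC replicate 2 (-0.63, adjusted p = 0.0516). With the replicate block Rbl2 was also lower in C-MYC than in BCR-ABL1 (-0.42, adjusted p = 0.025). Of the 10 genes for E2F factors and their DP partners, 4 were higher and 1 lower in C-MYC than in EV, beside 18.6% and 24.5% of all genes. In BCR-ABL1, 0 were higher and 1 lower than in EV, beside 5.08% and 12.0% of all genes. Between C-MYC and BCR-ABL1, 2 were higher and 0 lower in C-MYC, beside 11.5% and 11.9% of all genes. At an unadjusted p under 0.05, 2 were higher in BCR-ABL1 than in EV and 0 lower in C-MYC than in BCR-ABL1, and DESeq2 gave 1 and 0. With the replicate block, E2f3 (0.45, adjusted p = 0.0246) and E2f8 (0.50, adjusted p = 0.00494) were higher in BCR-ABL1 than in EV, and E2f8 was lower in C-MYC than in BCR-ABL1 (-0.46, adjusted p = 0.00538). The block also added E2f1 as higher and Tfdp2 as lower in C-MYC than in EV, and E2f4 as higher in C-MYC than in BCR-ABL1. E2f6, a repressor of the family, rose most in C-MYC, by 0.98 against EV (SE 0.202; adjusted p = 0.00653). E2f2, an activator of the family, was lower in BCR-ABL1 than in EV by -0.81 (SE 0.162; adjusted p = 0.0136), a call lost without BCR-ABL1 replicate 1 (-0.72, adjusted p = 0.111) or 2 (-0.90, adjusted p = 0.06). It was also lower in C-MYC than in EV (-0.51, SE 0.161; adjusted p = 0.0352), a call lost without EV replicate 2 (-0.25, adjusted p = 0.127) and without any library of the oncogenes (-0.46 to -0.55, adjusted p = 0.0547 to 0.155).

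Of 16 genes of S phase entry that E2F is known to activate, 12 were higher in C-MYC than in EV, beside 18.6% of all genes, and the median over the 16 was a log2 fold change of 0.42. Ccna2, Rrm2, Tyms and Tk1 did not pass (0.10 to 0.18), and without C-MYC replicate 1, 5 of 16 passed. Cdt1, which loads the replicative helicase, had the largest rise (0.63, SE 0.176; edgeR adjusted p = 0.0227), lost without EV replicate 2 (0.41, adjusted p = 0.0512) or C-MYC replicate 1 (0.47, adjusted p = 0.145). In BCR-ABL1, 2 of 16 were higher than in EV, Tyms and Mcm4, beside 5.08% of all genes, with a median of 0.29. With the replicate block, which called 1221 of all 12786 genes tested higher, 10 of 16 were higher in BCR-ABL1 than in EV. With library totals, with limma and without either BCR-ABL1 library, 0 of 16 passed there, by DESeq2 4 passed, and at an unadjusted p under 0.05 10 were higher. Between C-MYC and BCR-ABL1, 0 of 16 passed in either direction by edgeR and by DESeq2. By edgeR, 11.5% of all genes were higher and 11.9% lower there. At an unadjusted p under 0.05, 1 of the 16 was higher. With the block 1 passed as higher, Cdt1. Of 9 genes of G2 and mitosis, 3 were higher in C-MYC than in EV, beside 18.6% of all genes, led by Ccnb1, cyclin B1 (0.65, SE 0.107; adjusted p = 0.00255, in all 15 alternatives), and 5 were higher with DESeq2, with no filter and without EV replicate 2. Mki67 (-0.23), Ccnb2 (-0.20) and Top2a (-0.05) were lower in C-MYC than in EV and did not pass. In BCR-ABL1, 0 of these 9 passed by edgeR against EV, beside 5.08% of all genes higher and 12.0% lower. There, 2 were higher at an unadjusted p under 0.05, with DESeq2 and with the block. Between C-MYC and BCR-ABL1, Cdc20 passed as higher and Ccnb2 as lower in C-MYC, beside 11.5% and 11.9% of all genes. These calls were kept in 8 and 11 of 15 alternatives.

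Among CDK2 and its activators, 2 of 5 were higher in C-MYC than in EV, beside 18.6% of all genes, and 3 with DESeq2, at an unadjusted p under 0.05 and with the block. In BCR-ABL1, 0 of 5 were higher than in EV, beside 5.08% of all genes, and 1 by these 3 measures. Cdc25a, the phosphatase that removes inhibitory phosphate from CDK2, rose by a log2 fold change of 0.92 (SE 0.107; edgeR adjusted p = 0.000683), in all 15 alternatives. It was the gene that the block added in BCR-ABL1 (0.37, adjusted p = 0.0289). Of 10 tested genes for turnover of cyclins and p27, 6 were higher in C-MYC than in EV, beside 18.6% of all genes, and 2 were higher in BCR-ABL1 than in EV, Skp1a and Cul1, beside 5.08% of all genes. The count of 6 fell to 2 with library totals, to 1 with limma or without C-MYC replicate 1, and to 3 without C-MYC replicate 2, EV replicate 1 or either BCR-ABL1 library. With no block 0 of these 10 were lower in either comparison, beside 24.5% of all genes in C-MYC and 12.0% in BCR-ABL1. At an unadjusted p under 0.05, 1 was lower in C-MYC than in EV. Skp1a, an adaptor of SCF ubiquitin ligases, was higher in BCR-ABL1 by 0.45 (SE 0.112; adjusted p = 0.0302), a call kept in 9 of 15 alternatives and lost without EV replicate 1 (0.39, adjusted p = 0.058), BCR-ABL1 replicate 1 (0.49, adjusted p = 0.146) or BCR-ABL1 replicate 2 (0.42, adjusted p = 0.216). Fbxo31 (0.65, SE 0.187; adjusted p = 0.0247) and Skp2 (0.65, SE 0.179; adjusted p = 0.0209), substrate receptors of SCF ligases, rose by about the same in C-MYC against EV. The Fbxo31 call was kept in 9 of 15 alternatives and lost without EV replicate 1 (0.44, adjusted p = 0.056), C-MYC replicate 1 (0.54, adjusted p = 0.141) or C-MYC replicate 2 (0.77, adjusted p = 0.054).

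Of 10 transcription regulators of the cell cycle genes, 1 was higher and 3 were lower in C-MYC than in EV, beside 18.6% and 24.5% of all genes. The higher one was Myc itself, with a log2 fold change of 3.23 (SE 0.2; edgeR adjusted p = 0.000175). Its coding sequence was on the C-MYC vector, so this rise was set by the design, and no other listed regulator was called higher there. The lower ones were Foxo1, Foxo4 and Ikzf3, of which 1 was left without C-MYC replicate 2. Foxo4 (-0.55, SE 0.173; adjusted p = 0.0358) was lost without EV replicate 2 (-0.35, adjusted p = 0.11) and without any library of the oncogenes (-0.48 to -0.60, adjusted p = 0.0666 to 0.17). Foxo1, a FOXO factor that PI3K signals hold out of the nucleus, had 444 and 286 CPM in EV, 430 and 321 CPM in BCR-ABL1, and 206 and 170 CPM in C-MYC. Its log2 fold change in C-MYC was -0.96 against EV (SE 0.227; adjusted p = 0.0115), lost without C-MYC replicate 2 (-0.82, adjusted p = 0.0836). Against BCR-ABL1 it was -1.001 (SE 0.227; adjusted p = 0.0181), lost without BCR-ABL1 replicate 1 (-0.78, adjusted p = 0.129), C-MYC replicate 1 (-1.15, adjusted p = 0.0631) or C-MYC replicate 2 (-0.87, adjusted p = 0.126). In BCR-ABL1, Myc was higher than in EV by 1.12 (SE 0.186; adjusted p = 0.00681, in all 15 alternatives), and 0 of the 10 were lower by edgeR. At an unadjusted p under 0.05, 3 were lower there, and DESeq2 called 1. With the replicate block 3 passed as lower in BCR-ABL1 than in EV, Bcl6, Foxo4 and Ikzf3, and 6 passed as lower in C-MYC than in EV. Without the block, 12.0% and 24.5% of all genes were lower in these comparisons, and the shares with it are not given here. Bcl6 was high in 1 EV library, with 46.8 CPM in replicate 1 and 8.07 CPM in replicate 2.

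**Figure D4:**
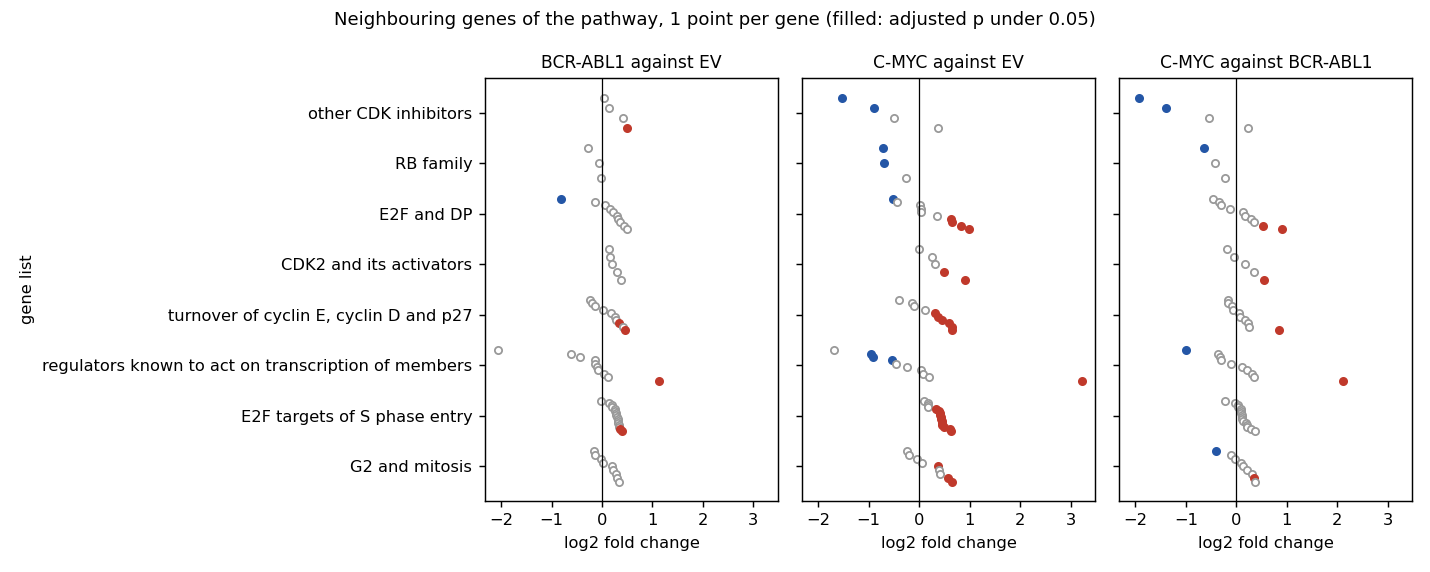
Log2 fold changes (horizontal axis) of neighbouring pathway genes, 1 point per gene, grouped by list and shown for the 3 comparisons. Filled points passed at an adjusted p under 0.05 (red, higher; blue, lower); of the E2F targets of S phase entry, 12 of 16 are red in C-MYC against EV, 2 of 16 in BCR-ABL1 against EV and 0 in C-MYC against BCR-ABL1.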

How the data were processed

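Poly(A) RNA-seq of EV, BCR-ABL1 and C-MYC cells was analysed with 2 libraries per condition. The ChIP-seq samples are not analysed here. Counts as deposited are whole numbers for each gene symbol, not normalized, which the authors made from reads aligned with STAR 2.5.0 to GRCm38/mm10 and UCSC known genes. The deposited FPKM values were made by the authors with StringTie 1.3.0. Versions are from the submitters' processing notes. The counting program, its use of strand and the way FPKM values were combined per symbol are not given in the sources used here, so genes that overlap on opposite strands may share reads.

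Counts were tested with edgeR 4.0.16 in R 4.3.3 (quasi-likelihood test, TMM, filterByExpr, 1 model over all 6 libraries without a covariate), with Benjamini-Hochberg adjustment over 12786 of 24421 genes and a threshold of 0.05. The SE is the absolute log2 fold change divided by the square root of the F value, and intervals are at 95%. A common biological coefficient of variation of 0.151 was estimated. The script was tested on simulated data. Replicates differed by more than counting noise (chi-square over degrees of freedom of 10.1 to 45.2). Deviations of same-numbered libraries correlated at 0.273 (EV and BCR-ABL1), 0.236 (EV and C-MYC) and 0.204 (BCR-ABL1 and C-MYC). The numbers were therefore taken to pair the libraries in the alternative with the replicate block. The main model did not pair them, so the main calls ignore this correlation. The labels do not say what a number marks.

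Exon lengths are the union of annotated exons in GENCODE vM21 (GRCm38), matched for 95.7% of symbols, and positions are 1-based. Python 3.11.15 with numpy 2.4.6, pandas 2.3.3 and matplotlib 3.10.9 was used for lengths, ratios, promoters and figures. Promoter windows are from RefSeq on GRCm38.p6.

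Alternatives used DESeq2 1.42.0 (its Wald test, or its size factors in edgeR), library totals, no filter, a mean of at least 10 counts, limma 3.58.1 on log2 of the FPKM with a pseudocount of 1 or 0.1, only the 4 libraries compared, the replicate block, and each library left out. When a library is left out, the lone library of its condition is assumed to vary like the others.

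The 10 genes, the pathway lists and the marker lists (B cell precursor, myeloid, macrophage, T and NK, erythroid, stroma, mast cell) were chosen with earlier results of these data known. The text names all 10 genes, Myc as a check of the label, and from each list the gene with the largest change that passed, with others a result turns on. It also names the genes most like each D cyclin over the 6 libraries. Others were named after their values were seen, where a count of 5 or fewer is spelled out or a gene stood out.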

Additional observations from a re-analysis of the deposited data

How the results depend on the processing

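Under 9 other settings and 6 fits without a library, 7 of the 9 calls of C-MYC against EV were kept in at least 14 of 15; the exceptions were Ccnd2 (8) and Ccne2 (6). The replicate block changed no call of the 10 genes in C-MYC against EV. Library totals in place of TMM moved the median log2 fold change of all genes by -0.12 in C-MYC against EV. Among the 10 genes, depth was lowest for Ccnd1 (79 to 212 counts per library). Of the other CDK inhibitors, Cdkn2b (11 to 54 counts) and Cdkn1c (19 to 41 counts) were lower still.
For BCR-ABL1 against EV, where 650 genes were higher, 396 were higher with library totals, 340 and 364 with limma at a pseudocount of 1 and 0.1, 402 with only the 4 libraries compared and 1221 with the replicate block. With a library left out, 118 to 1000 genes were higher, 547 to 1799 lower, and of the 10 genes 0 to 1 higher and 0 to 1 lower. Of the 10 genes, 1 was lower, in place of 0, with library totals, no filter, DESeq2, either limma fit and the block, and 0 were higher, in place of 1, with either limma fit.
For C-MYC against EV with a library left out, 1431 to 2701 genes were higher and 1898 to 3376 lower, and of the 10 genes 2 to 4 were higher and 4 to 5 lower. For C-MYC against BCR-ABL1, where 1468 genes were higher, 950 were higher with limma at a pseudocount of 1 and 2271 with only the 4 libraries. Of the 10 genes, 2 were higher with DESeq2, 3 with only the 4 libraries and 3 with the block, in place of 1. With a library left out, 176 to 2235 genes were higher and 442 to 2284 lower, and of the 10 genes 0 to 2 were higher and 1 to 5 lower. All 30 shares and ratios by condition moved by more than the spread when CPM per kilobase replaced FPKM.
The sign of differences that were not called changed as follows. For BCR-ABL1 against EV, Ccnd2 (0.01) was at -0.063 with library totals, -0.069 and -0.070 with limma at a pseudocount of 1 and 0.1, -0.0037 with only the 4 libraries, and -0.040 to 0.064 with a library left out (below 0 without EV replicate 2 or BCR-ABL1 replicate 1). Ccnd3 (-0.05) was at -0.13 to 0.040 with a library left out, above 0 without these 2. Cdkn1b (0.03) was at -0.034 with library totals, -0.025 with either limma fit, and -0.13 to 0.22 with a library left out. Cdkn2c (0.07) was at -0.066 to 0.23 with a library left out, below 0 without EV replicate 2. For C-MYC against BCR-ABL1, Ccnd1 (0.36) was at -0.22 to 0.76, below 0 without C-MYC replicate 2. The cause was not tested.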

Other observations

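The genes whose log2 CPM was most like that of each D cyclin over the 6 libraries, by Pearson's r among all genes tested, are given as a description. The points share libraries and conditions. For Ccnd3 they were Terf2 (r = 0.998), Gm11346 (0.997) and Ccar2 (0.996). For Ccnd2 they were Ptprcap (0.996), Ttyh3 (0.995) and Slc9a2 (0.994). For Ccnd1, which had 79 to 212 counts per library, they were Pyroxd1 (0.988), Zkscan16 (0.978) and Slc16a7 (0.976).

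Bcl6, a transcription repressor among the listed regulators, was high in 1 EV library. It had 46.8 CPM in EV replicate 1 and 8.07 CPM in EV replicate 2, beside 7.58 and 5.61 CPM in BCR-ABL1 and 10.2 and 6.65 CPM in C-MYC. The log2 fold change from EV was -2.06 for BCR-ABL1 (SE 0.692; edgeR adjusted p = 0.0837) and -1.70 for C-MYC (SE 0.68; adjusted p = 0.0779). With the replicate block these were -1.73 (adjusted p = 0.027) and -1.40 (adjusted p = 0.0294).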
